A study of Arabidopsis thaliana with 6 samples.

Results

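The estradiol response of 9-day-old Arabidopsis thaliana seedlings was read as the difference between 4 estradiol arrays, from both lines of the study, and 2 mock arrays, which together are all 6 arrays of the series. Estradiol was given for 8 h to HY213 (replicates 1 and 2) and to the wild type (replicates 1 and 2), and the mock treatment of 8 h to HY213 alone (replicates 1 and 2). Each replicate is a separate biological pool of seedlings, per the design text. HY213 is taken here to be the pER22-AGL24 line of the design text, in which estradiol switches on AGL24, a MADS-box gene that promotes flowering, since the titles set only HY213 and the wild type against each other. The ecotype label is Columbia on 5 arrays and absent on the mock replicate 1 array. Within each replicate number, the mean log2 intensity of the 2 estradiol arrays was set against the mock array, for all 22746 probe sets that are not array controls. The comparison asks which transcripts differ from mock in both lines, so also in seedlings without the AGL24 transgene. The design text gives the chemical's own effect as the reason for including the wild type.

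The design limits this reading in 2 ways. Wild-type mock seedlings are not among the samples, so a difference between estradiol-treated wild type and HY213 mock mixes line and chemical, which cannot be told apart in that pair. Within a replicate both lines are set against the same mock array, so a deviation of that single array appears in both. Replicates 1 and 2 share no array.

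Estradiol is an animal steroid that serves as the inducer in chemically switched transgenes. Plants meet many foreign molecules with a detoxification programme in which reductases and oxidases modify a compound, glycosyltransferases and glutathione transferases conjugate it, and transporters move it into the vacuole or out of the cell. Reductases of that programme also clear reactive aldehydes and alkenals that form when membranes are oxidised.

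Array medians lay between 6.95 and 7.27 intensity units, and the highest Bacillus control probe sets, which have no target in the plant, read 5.14 to 6.22. Arrays correlated more closely within a replicate number (r 0.988 to 0.992 across probe sets) than within a group, where r was 0.965 to 0.98 (these are correlations across probe sets, which are no replicates). The seedling label was checked against tissue markers. The root β-glucosidase gene PYK10 read 1374 and 1154 in HY213 and 1278 and 1044 in wild type after estradiol, against 1320 and 1162 in mock (replicates 1 and 2). RCA, the Rubisco activase gene of leaves, read 461 and 838 in HY213 and 195 and 1036 in wild type after estradiol, against 644 and 906 in mock, and was thus lowest in wild type replicate 1. Only 1 of 5 leaf markers, RCA, and 2 of 7 root markers, PYK10 and EXPA7, could be named on the array. EXPA7 is described with the root hair genes. The seed and flower markers could not be named and were not analysed here. In whole seedlings, fewer cells of a type and less RNA per cell cannot be told apart.

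Among probe sets listed for 1 gene, those at least 2-fold higher in both replicates and above mock in both lines were AT3G04000, which encodes a short-chain dehydrogenase/reductase that reduces reactive aldehydes, and AT5G35735, which encodes a membrane protein with cytochrome b561 and DOMON domains from an auxin-responsive family. Of the probe sets without a single gene name, 2 differed by more, at 2.77 and 2.15 on the log2 scale, against 1.57 for AT3G04000 and 1.54 for AT5G35735. On the lower side stood AT5G06630, which encodes a proline-rich extensin-like cell wall protein, also by at least 2-fold in both replicates. GSTU20, a tau-class glutathione transferase gene, met the same rule with a fitted log2 difference of -1.14. Its wild-type values lay under the Bacillus controls. AT4G33720 met the rule too, though its log2 difference in wild type replicate 1 was only -0.02. limma called 0 of 22746 probe sets higher and 0 lower at an adjusted p of 0.05 (0% in each direction), and the smallest adjusted p was 0.344. At an unadjusted p under 0.05 there were 595 higher (2.62%) and 578 lower (2.54%), 1173 in all where chance gives 1137. The genes below are therefore described by their values. The count of 0 rests on both mock arrays being present: without mock replicate 1 the fit called 251 probe sets, and without mock replicate 2 it called 106. In each case 1 mock array stands alone and is assumed to vary like the other groups. Leaving out 1 estradiol array gave 13 calls without HY213 replicate 1, 5 without wild type replicate 1, 1 without HY213 replicate 2 and 0 without wild type replicate 2.

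By size, 6 probe sets were at least 2-fold higher in both replicates (0.0264% of those tested) and 3 at least 2-fold lower (0.0132%). The 6 were AGL24, AT3G04000, AT5G35735, 1 probe set listed for no gene and 2 probe sets listed for 2 genes each. AGL24 belongs there through HY213 alone. It read 106 and 401 in estradiol-treated HY213 and 5.05 and 4.6 in estradiol-treated wild type, against 4.98 and 4.87 in mock, where wild type and mock lay under the Bacillus controls of their arrays. The 3 lower probe sets were AT5G06630, AT4G33720 and GSTU20. The names of these counts outside the rule for named genes, GSTU20 and the probe sets without a single gene, were given after their values were seen. When each line had to reach 2-fold by itself in each replicate, 4 probe sets were higher (0.0176%), AT3G04000 and the 3 probe sets without a single gene, and 0 were lower. With the 2 lines averaged, 22 probe sets were at least 1.5-fold higher in both replicates (0.0967%) and 11 at least 1.5-fold lower (0.0484%). At 1.5-fold in each line and replicate there were 11 higher (0.0484%) and 4 lower (0.0176%). Without wild type replicate 1 the 2-fold count in each line was 9, with 7 higher and 2 lower. Without mock replicate 1 it was 134 and without mock replicate 2 it was 13, since 1 replicate alone then decides, and the count for both replicates became 215 and 27.

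AT3G04000 read 50.5 and 209 in estradiol-treated HY213 and 55.6 and 210 in estradiol-treated wild type (replicates 1 and 2), against 22.5 and 56.0 in mock. Each estradiol array stood above the mock array of its replicate, while the level of every group was higher in replicate 2, so that replicate 1 of both lines overlapped mock replicate 2. The within-replicate log2 differences were 1.24 and 1.90, and the fitted difference was 1.57 ± 0.19 (SE), with an unadjusted p of 3.03e-05 and an adjusted p of 0.344 in limma. The fitted difference was 1.90 without mock replicate 1 and 1.24 without mock replicate 2. It was 1.46 to 1.68 with 1 of the 4 estradiol arrays left out. Each of these fits leaves 1 array alone in its group. AT4G13180, a second short-chain dehydrogenase/reductase gene, read 38.7 and 43.4 in HY213 and 34.0 and 46.5 in wild type after estradiol, against 20.5 and 19.5 in mock. All 4 estradiol arrays were above both mock arrays, and its mock level was nearly the same in both replicates. The fitted log2 difference was 1.02 ± 0.17 (SE), with an unadjusted p of 0.000258 in limma. AER, which encodes an NADPH-dependent alkenal reductase, read 67.8 and 188 in HY213 and 88.3 and 136 in wild type after estradiol, against 55.8 and 58.8 in mock, again with no overlap. Its log2 difference was 0.96 ± 0.26 (SE), most of it from replicate 2.

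AT5G35735 read 49.4 and 123 in HY213 and 33.4 and 109 in wild type after estradiol, against 19.4 and 28.8 in mock, with no overlap between the 4 estradiol and the 2 mock arrays. Its log2 difference was 1.06 in replicate 1 and 2.01 in replicate 2, and 1.54 ± 0.23 (SE) in the fit. AT4G20860, which encodes a berberine bridge enzyme-like oxidase, read 25.2 and 105 in HY213 and 27.0 and 85.9 in wild type after estradiol, against 13.8 and 32.8 in mock. As in AT3G04000, the groups overlapped across replicates but not within them. The log2 difference was 1.23 ± 0.19 (SE). AT5G64250, an enzyme gene of the aldolase TIM-barrel fold, read 52.2 and 166 in HY213 and 54.0 and 154 in wild type after estradiol, against 40.1 and 101 in mock. AT1G66760, which encodes a MATE-type efflux carrier of the kind that exports conjugates, read 21.7 and 44.9 in HY213 and 27.6 and 50.7 in wild type after estradiol, against 16.2 and 32.2 in mock. Its log2 differences of 0.59 and 0.57 were close to each other in the 2 replicates. In this gene the wild-type values were the higher ones in both replicates, while in AT5G35735 the HY213 values were.

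**Figure D1:**
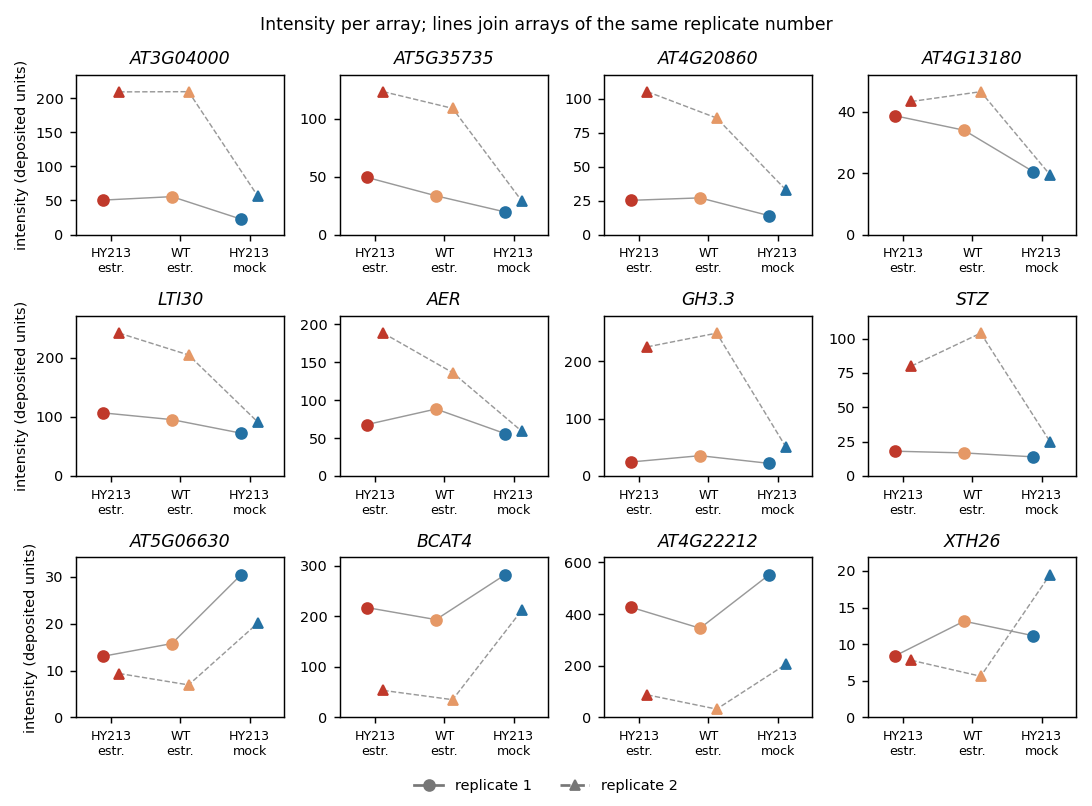
Deposited intensity of 12 genes on the 6 arrays, with 1 panel per gene, groups from left to right estradiol-treated HY213, estradiol-treated wild type and mock HY213, circles for replicate 1 and triangles for replicate 2, and a line joining the arrays of a replicate. AT3G04000 to STZ read above mock in both lines and both replicates, AT5G06630, BCAT4 and AT4G22212 read below it, and XTH26 was below mock in both lines in replicate 2 only (7.80 and 5.62 against 19.5).

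Of the other higher genes, LTI30, which encodes a dehydrin that protects membranes in cold and drought, read 107 and 242 in HY213 and 95.5 and 205 in wild type after estradiol, against 72.5 and 91.1 in mock, and all 4 estradiol arrays were above both mock arrays. Its log2 difference was 0.48 in replicate 1 and 1.29 in replicate 2. AT5G12010 had the larger difference in replicate 1, 0.88 against 0.66 in replicate 2. It read 65.9 and 98.7 in HY213 and 47.4 and 81.7 in wild type after estradiol, against 30.3 and 57.0 in mock. AT5G42050, which encodes a protein with a DCD (development and cell death) domain, read 174 and 196 in HY213 and 201 and 242 in wild type after estradiol, against 134 and 134 in mock, with no overlap. DER2.1, a derlin gene of endoplasmic reticulum quality control, read 110 and 170 in HY213 and 98.7 and 160 in wild type after estradiol, against 72.2 and 124 in mock. AT5G24210, which encodes a lipase-like hydrolase, read 39.9 and 163 in HY213 and 52.3 and 120 in wild type after estradiol, against 30.9 and 72.7 in mock. AT3G51660, a gene of the MIF tautomerase family, read 54.7 and 88.3 in HY213 and 56.2 and 59.1 in wild type after estradiol, against 43.0 and 40.2 in mock. The Yippee-family gene AT3G11230 and the genes AT2G28570 and AT2G18690 complete the 15, with log2 differences of 0.45, 0.59 and 0.43.

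Across the 15 higher genes the fitted log2 differences went from 0.43 to 1.57, unadjusted p from 3.03e-05 to 0.0403 and adjusted p from 0.344 to 0.887 in limma. Their median was 0.53 in replicate 1 and 0.82 in replicate 2, and 11 of the 15 were larger in replicate 2. The 4 estradiol arrays lay above both mock arrays in 5 of the 15, where 5.21% of all probe sets did so. That share is no fair baseline, since the rule itself favours such probe sets. Of 597 probe sets that were as bright and higher in all 4 pairs, 184 lay above both mock arrays. The rule asks for a difference of one sign in all 4 pairs, so the direction of the 15 genes is no finding. They are the first 15 of 289 genes that met its other conditions. The last one named, AT2G18690, had a smallest difference of 0.292 and the first one left out, AT1G70780, had 0.2919. Meeting the 1.5-fold rule in each line and replicate but too dim for the list in replicate 1 were JRG21 and AT3G22060, both picked after their values were seen. JRG21, which encodes an oxygenase that inactivates jasmonate, read 12.4 and 116 in HY213 and 11.1 and 48.8 in wild type after estradiol, against 6.73 and 14.2 in mock. AT3G22060, which encodes a secreted cysteine-rich repeat protein, read 7.38 and 38.2 in HY213 and 7.16 and 16.5 in wild type after estradiol, against 4.38 and 5.45 in mock.

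Of the probe sets without a single gene name, 1 is listed for 2 UDP-glycosyltransferase genes of the UGT73B group, and its signal cannot be assigned to either. It read 110 and 216 in HY213 and 121 and 222 in wild type after estradiol, against 54.1 and 62.3 in mock, with no overlap. Its log2 difference was 1.46 ± 0.19 (SE), and the lines differed by -0.09 ± 0.22 (SE). The other probe set with 2 genes read 105 and 729 in HY213 and 99.3 and 631 in wild type after estradiol, against 40.9 and 86.1 in mock. The probe set listed for no gene read 171 and 748 in HY213 and 140 and 661 in wild type after estradiol, against 63.0 and 37.4 in mock. Its log2 difference in replicate 2 was 4.23, the larger of the pair.

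The 10 lower genes had fitted log2 differences from -1.38 to -0.44. AT5G06630 read 13.0 and 9.36 in HY213 and 15.7 and 6.93 in wild type after estradiol, against 30.4 and 20.1 in mock, with all 4 estradiol arrays below both mock arrays. Its probe set is of a type (x_at) that can bind related transcripts, and extensin-like genes are close copies of each other, so the value may sum several. The log2 difference was -1.09 in replicate 1 and -1.32 in replicate 2, and -1.20 ± 0.17 (SE) in the fit, with an unadjusted p of 9.20e-05 and an adjusted p of 0.418 in limma. The fitted difference was -1.32 without mock replicate 1 and -1.09 without mock replicate 2. It was -1.37 to -1.04 with 1 of the 4 estradiol arrays left out. Each of these fits leaves 1 array alone in its group. BCAT4, which encodes the aminotransferase that starts methionine-derived glucosinolate synthesis, read 217 and 53.4 in HY213 and 193 and 35.1 in wild type after estradiol, against 282 and 212 in mock. The difference was -0.46 in replicate 1 and -2.29 in replicate 2. AT4G22212, which encodes a defensin-like protein, read 427 and 87.4 in HY213 and 345 and 32.2 in wild type after estradiol, against 553 and 206 in mock, with -0.53 in replicate 1 and -1.96 in replicate 2. In both genes replicate 2 set most of the difference, in both lines.

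The remaining lower genes were more even between replicates. AT4G25730, which encodes an FtsJ-like RNA methyltransferase, differed by -0.61 and -0.59 in replicates 1 and 2. AT3G19850, of the NPH3 family of phototropism proteins, read 21.9 and 17.6 in HY213 and 20.1 and 19.3 in wild type after estradiol, against 30.5 and 30.1 in mock, with no overlap. RTE1, a regulator of the ethylene receptor ETR1, read 41.6 and 44.6 in HY213 and 40.2 and 51.4 in wild type after estradiol, against 56.0 and 67.5 in mock, also with no overlap. The list holds 2 genes of the hyaluronan/mRNA-binding family, which are RGG-repeat RNA-binding proteins. AT5G47210 read 195 and 161 in HY213 and 122 and 155 in wild type after estradiol, against 250 and 228 in mock, and AT4G17520 read 75.4 and 79.5 in HY213 and 56.4 and 69.4 in wild type after estradiol, against 97.0 and 104 in mock. In both genes all 4 estradiol arrays were below both mock arrays. AT4G27900, a CCT-motif gene, and AT2G40650, a gene of the PRP38 splicing factor family, differed by -0.44 and -0.46 in the fit. The 4 estradiol arrays lay below both mock arrays in 6 of the 10, where 3.54% of all probe sets did so. Again the rule fixes the direction and favours such probe sets. Of 686 probe sets that were as bright and lower in all 4 pairs, 201 lay below both mock arrays. The 10 come from 323 genes that met the other conditions of the rule. AT4G33720, a gene of a PR-1-like secreted protein, was 2-fold lower in both replicates with the lines averaged, but not in each line. It read 90.5 and 144 in HY213 and 368 and 51.0 in wild type after estradiol, against 374 and 609 in mock.

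**Figure D2:**
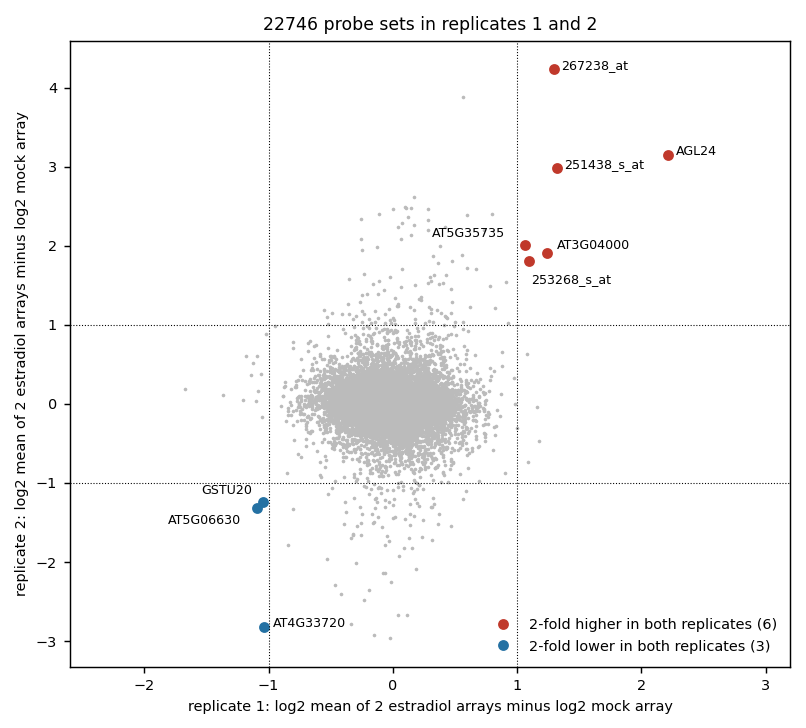
Log2 difference of the mean of the 2 estradiol arrays from the mock array in replicate 1 (horizontal axis) and in replicate 2 (vertical axis), with 1 point for each of 22746 probe sets and dotted lines at 2-fold. The 6 red and 3 blue points are 2-fold apart in both replicates, and the cloud is taller than wide, with SDs of 0.251 in replicate 2 and 0.217 in replicate 1.

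Replicates 1 and 2 offer a comparison free of shared arrays. Over all 22746 probe sets the replicate 1 and replicate 2 differences had a Pearson r of -0.00164, and 47.8% had the same sign. Among the 6577 probe sets whose brighter side reached 16 units in both replicates r was -0.0138. Among the largest differences more probe sets were shared on the higher side. Leaving AGL24 aside, 10 probe sets were at least 2-fold higher in replicate 1, and 5 of these (50%) were also 2-fold higher in replicate 2, where 0.501% of all probe sets were. Those 5 were 4.39% of the 114 probe sets that were 2-fold higher in replicate 2. Of the 16 probe sets 2-fold lower in replicate 1, 3 (18.8%) were also 2-fold lower in replicate 2, where 0.44% of all were, and they were 3% of the 100 that were 2-fold lower there. Only 4 of these 16 had the same sign in replicate 2, against 47% of all probe sets. Counting AGL24, replicate 2 held 115 probe sets 2-fold higher and 100 lower, and replicate 1 held 11 and 16.

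No difference between the lines passed the threshold except AGL24. In the same fit, the contrast of HY213 with wild type, both under estradiol, gave 1 call of 22746 (0.0044%), with 825 (3.63%) at an unadjusted p under 0.05. AGL24 was at least 36.0-fold higher in HY213, with wild type set at its Bacillus controls, and the limma adjusted p was 0.0252. That call was lost with a pseudocount of 16 (adjusted p 0.332) or 64 (0.998), without the block (1), without the variance trend (0.949) and with a robust prior (0.998). Among the 15 higher genes the line difference went from -0.26 to 0.37 on the log2 scale, and among the 10 lower genes from -0.08 to 0.87. It had an unadjusted p under 0.05 in 0 of the 25 genes. The rule favours genes in which the lines read alike, so this is a description. The widest was AT4G22212, at 0.87 ± 0.38 (SE). GSTU20, a tau-class glutathione transferase gene, was lower than mock in both lines but further in wild type: it read 7.56 and 7.93 in HY213 and 6.03 and 4.38 in wild type after estradiol, against 13.9 and 14.0 in mock. Both wild-type values lay under the Bacillus controls, so mock was at least 2.43-fold higher than wild type, and measured GSTU20 in HY213 was 0.556 times mock. The line difference had an unadjusted p of 0.00499 and an adjusted p of 0.996 in limma.

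**Figure D3:**
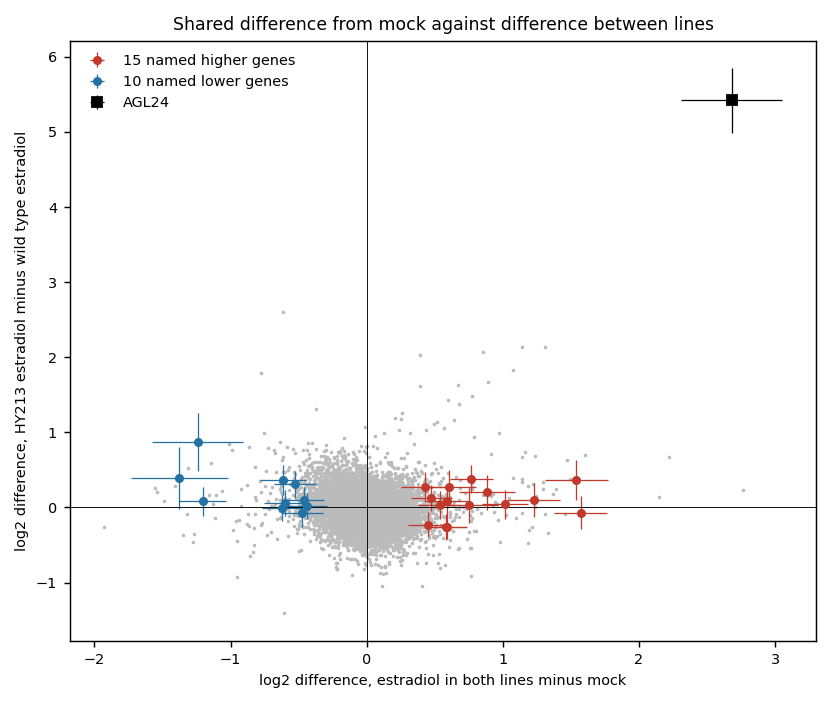
Log2 difference of both estradiol groups from mock (horizontal axis) against the log2 difference of estradiol-treated HY213 from estradiol-treated wild type (vertical axis), with 1 grey point per probe set, coloured points for the 15 higher and 10 lower genes, a black square for AGL24, and bars of 1 SE. The named genes spread along the horizontal axis with line differences of -0.26 to 0.87, while AGL24 stands at 5.42 on the vertical axis.

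The gene lists held few nameable genes, and limma called 0 members in each. Members and lists were chosen with earlier results of these data known, so the counts below describe the lists and test nothing. Counts of members with all 4 estradiol arrays on one side of the mock array of their replicate are read against 11.9% higher and 10.8% lower over all probe sets, and list medians against a median of -0.000959 over all. Of 9 measured genes of the xenobiotic and electrophile response, 4 were higher in all 4 pairs and 1, GSTU20, was lower, with a median of 0.08. That median was 0.28 without the dimmest 25% of probe sets, and 4 of the 9 genes reached 16 units on any array. The brightest, ALDH7B4, named after its values were seen, differed by 0.008 ± 0.13 (SE), with -0.21 in replicate 1 and 0.23 in replicate 2. The 4 higher genes were GSTU25, which lay under the Bacillus controls on every array, AT3G04000, AER and the glycosyltransferase gene UGT73B5, which read 11.3 and 11.5 in HY213 and 10.1 and 18.5 in wild type after estradiol, against 8.83 and 10.3 in mock. Of 47 UDP-glycosyltransferase genes 7 were higher in all 4 pairs and 4 lower (14.9% and 8.51%), with a median of 0.04. The glycosyltransferase gene UGT87A2 read 42.4 and 129 in HY213 and 52.7 and 119 in wild type after estradiol, against 34.9 and 93.3 in mock, while UGT76C2, a cytokinin glucosyltransferase gene, read 14.8 and 10.2 in HY213 and 18.1 and 12.4 in wild type after estradiol, against 18.7 and 17.4 in mock. Of 14 glutathione transferase genes 4 were higher and 1, GSTU20, lower, with GSTU16 at 0.32 ± 0.13 (SE) the highest in the list. Only 3 of the 14 reached 16 units on any array, GSTU16, GSTL3 and GSTU27. GSTL3 differed by -0.18 ± 0.16 (SE) and GSTU27 by -0.06 ± 0.20 (SE), and neither was on one side of mock in all 4 pairs. Besides GSTU16, the higher genes were GSTU25, ATGSTF13 and GSTU22. GSTU25 lay under the Bacillus controls on every array, and ATGSTF13 and GSTU22 on every array of replicate 1. Of 26 genes matched by a cytochrome P450 symbol, 2 of which (CYP71, AT3G44600, and CYP59, AT1G53720) are cyclophilin genes that share the prefix, 3 were higher and 2 lower, with a median of 0.02.

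Of 7 measured auxin response genes 3 were higher in all 4 pairs (GH3.3, HAT2 and IAA29) and 2 lower. The 2 lower genes, LBD29 and GH3.1, were under 16 units on every array and are named after their values were seen. Only 3 of the 7 reached 16 units, GH3.3, HAT2 and WES1. WES1 was on neither side in all 4 pairs. It read 98.1 and 90.3 in HY213 and 90.5 and 104 in wild type after estradiol, against 95.4 and 68.3 in mock. GH3.3, which encodes an enzyme that conjugates auxin to amino acids, read 24.3 and 225 in HY213 and 35.4 and 249 in wild type after estradiol, against 21.9 and 50.2 in mock. Its log2 difference was 0.42 in replicate 1 and 2.24 in replicate 2, larger in replicate 2 in both lines. The homeobox gene HAT2 read 44.3 and 69.2 in HY213 and 40.0 and 100 in wild type after estradiol, against 35.0 and 61.4 in mock. GH3.17, a related conjugating enzyme gene from the family list, was smaller but more even, at 18.6 and 12.2 in HY213 and 24.3 and 14.4 in wild type after estradiol, against 15.8 and 7.41 in mock. The fitted value was 0.63 ± 0.15 (SE). In the family list of GH3, IAA and SAUR genes 6 of 11 were higher in all 4 pairs and 1 lower, with a median of 0.02. The 11 measured genes were GH3 and IAA genes, and no SAUR gene was among them. Only 3 of the 11 reached 16 units on any array, and of the 6, IAA33 and GH3.9 lay under the Bacillus controls on every array and IAA29 differed by as little as 0.00082 in 1 pair.

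Of 5 measured cold, drought and abscisic acid genes 3 were higher in all 4 pairs and 0 lower, with a median of 0.38, or 0.63 without the dimmest 25% of probe sets. Beside LTI30 these were COR47, a second dehydrin gene, at 751 and 602 in HY213 and 733 and 640 in wild type after estradiol, against 533 and 511 in mock, and STZ. COR47 stood above mock by 0.48 in replicate 1 and 0.28 in replicate 2, with no overlap, and by 0.38 ± 0.12 (SE) in the fit. STZ, which encodes a zinc-finger repressor of stress responses, read 18.1 and 80.0 in HY213 and 16.8 and 104 in wild type after estradiol, against 13.9 and 24.9 in mock, so that its difference was 0.32 in replicate 1 and 1.87 in replicate 2. The peroxidase gene PRX52, from a family list of 3 genes by symbol, read 5.36 and 22.1 in HY213 and 5.23 and 22.4 in wild type after estradiol, against 4.35 and 4.87 in mock, and was above the Bacillus controls in replicate 2 of both lines alone. WRKY6, a transcription factor gene of senescence and defence, read 6.88 and 22.1 in HY213 and 7.64 and 17.5 in wild type after estradiol, against 7.08 and 10.4 in mock. In the family of WRKY genes 0 of 6 were higher in all 4 pairs and 2 were lower. The calmodulin-like family had 4 of 7 genes higher in all 4 pairs and 0 lower, with a median of 0.15. Of the 4, CML37 lay under the Bacillus controls on every array, and CML38 and CML23 on every array of replicate 1. Only 2 of the 7 reached 16 units on any array, CML30 at 0.16 and CML41 at -0.35 in the fit.

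**Figure D4:**
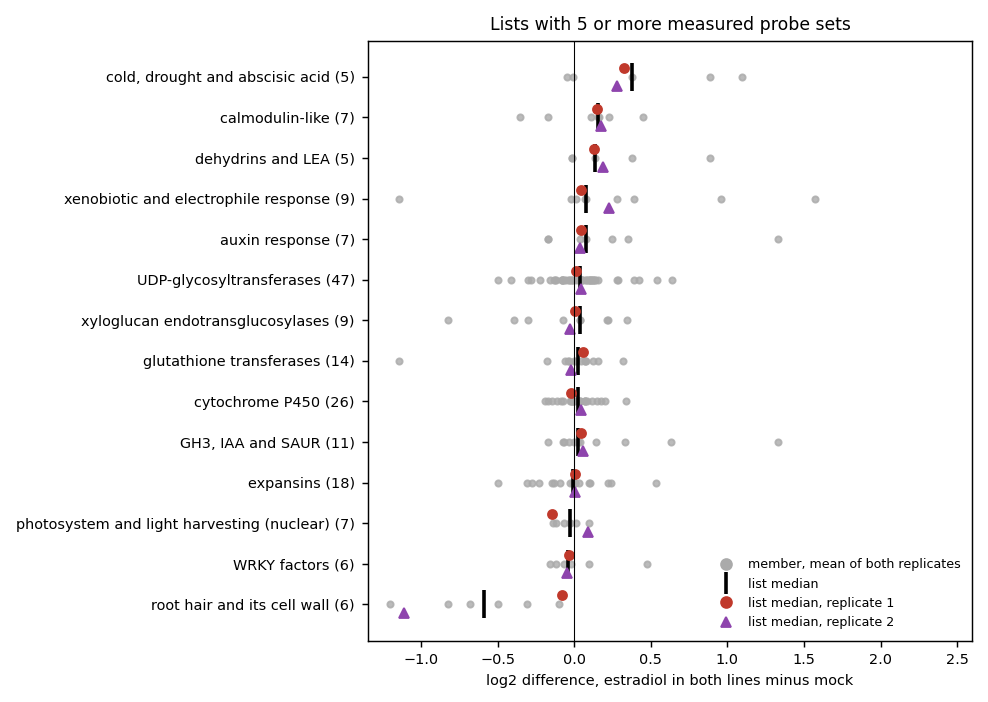
Log2 difference of both estradiol groups from mock for the members of each gene list with 5 or more measured probe sets (number in brackets), as grey points, with the list median as a black bar and the medians of replicate 1 (red circles) and replicate 2 (purple triangles). Most medians lie near 0, the cold and drought list stands at 0.38, and the root hair list at -0.59 differs between the replicates, at -0.08 and -1.11.

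The root hair and cell wall list had all 6 measured genes below mock in the fit, where 50.4% of all probe sets were, 2 of them in all 4 pairs and 0 higher, with a median of -0.59. This count is a description, since the list was chosen with earlier results of these data known. It also holds AT5G06630, which the rule for lower genes had picked. The difference was uneven between replicates, with a median of -0.08 in replicate 1 and -1.11 in replicate 2. Besides AT5G06630, HRGP1, an extensin gene whose probe set (x_at) can also bind related transcripts, read 73.4 and 22.3 in HY213 and 94.2 and 16.7 in wild type after estradiol, against 86.7 and 47.7 in mock. XTH26, a root hair xyloglucan-modifying enzyme gene, read 8.38 and 7.80 in HY213 and 13.1 and 5.62 in wild type after estradiol, against 11.2 and 19.5 in mock. The root hair expansin genes EXPA7 and EXPA18 read 13.9 and 9.56 in HY213 and 9.99 and 8.87 in wild type after estradiol, against 16.8 and 17.4 in mock, in replicate 2. In replicate 1 EXPA7 read 21.6 in HY213 and 21.4 in wild type, against 23.2 in mock, and EXPA18 read 18.6 in HY213 and 28.4 in wild type, against 24.2 in mock. Of the 2 measured root markers, PYK10 differed by -0.04 ± 0.09 (SE) in the same fit. The other, EXPA7, differed by -0.31 ± 0.17 (SE) and was below mock in all 4 pairs. The part of tissue content in these values was not tested. Over 18 expansin genes, 2 were higher in all 4 pairs and 1 lower, with a median of -0.01. EXLA1, an expansin-like gene that is no root hair gene, read 75.9 and 119 in HY213 and 133 and 207 in wild type after estradiol, against 100 and 75.2 in mock.

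The nuclear photosystem genes gave 1 of 7 higher in all 4 pairs and 0 lower, with medians of -0.15 in replicate 1 and 0.09 in replicate 2. The clock gene GI, the only measured gene of its list, read 52.4 and 69.4 in HY213 and 55.8 and 76.7 in wild type after estradiol, against 71.8 and 68.1 in mock, below mock in replicate 1 and above it in replicate 2. Of the brassinosteroid list, the plant steroid hormone pathway, only the expansin gene EXPA8 could be named, with a log2 difference of -0.14 ± 0.12 (SE). It reached 16 units on no array and is given after its value was seen.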

How the data were processed

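Total RNA of 6 Arabidopsis thaliana seedling samples was biotin-labelled for Affymetrix arrays, according to the labels. The authors deposited 1 table of intensity values on a linear scale. MAS5 and RMA appear in the submitters' processing notes, with nothing on which made the table. That choice sets how dim probe sets spread, so dim values are read with care.

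The 64 control probe sets were left out, which leaves 22746. Platform annotation lists 13513 of them for 1 gene, 503 for several and 8730 for none here, and RefSeq (TAIR10.1) holds 13484 of those listed for 1 gene. Of 200 loci in the gene lists, 40 can be named on the array.

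Values were taken to log2 with no pseudocount. The 3 groups, with replicate number blocked and 2 residual degrees of freedom, were fitted by limma 3.58.1 (R 4.3.3) under a variance trend, and p-values were adjusted by Benjamini-Hochberg over all probe sets at a threshold of 0.05. The contrast was the mean of both estradiol groups minus mock. The block follows from the comparison, which is within replicate number. The deviations of same-numbered arrays from their group means correlated across probe sets, with r of 0.627, 0.606 and 0.779 for the 3 pairs of groups. The fit was tested on simulated data with independent noise on each array. Of 50 differences planted at each size, it called 33 at 1.5-fold, 48 at 2-fold, 49 at 4-fold and 50 at 8-fold. The same fit made 14 false calls. Whether the noise of the real arrays is independent was not tested, so these counts need not hold for them. An exact permutation test of 4 against 2 arrays cannot give a p below 0.0667, so none is printed.

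Named genes are those listed alone for a probe set: AGL24; the 15 higher and 10 lower genes whose 4 within-replicate differences share a sign, whose brighter side reaches 16 units in both replicates, and whose smallest difference is largest; and, among list members that reach 16 units, up to 3 a list by unadjusted p. Others are marked. Members and lists were chosen with earlier results of these data known. Alternatives were pseudocounts, normalization, filters on dim probe sets, no block, 2 groups in place of 3, other variance priors, other thresholds, each array left out and, added after the data were seen, values raised to the Bacillus controls. No sequence tables came with the reference, so none are printed.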

Additional observations from a re-analysis of the deposited data

Results flagged for a closer look

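AGL24 differed between the 2 lines under the same chemical, by 5.42 ± 0.43 (SE) on the log2 scale for estradiol-treated HY213 minus estradiol-treated wild type, with an adjusted p of 0.0252 in limma with the replicate block. It was higher in HY213 in both replicates. Wild type and mock lay under the Bacillus controls, so the fitted size depends on dim values, and the bound is at least 36.0-fold. No other gene named here had a line difference past the threshold. Groups hold 2 arrays each, too few for a check of single arrays that stand apart.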

How the results depend on the processing

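All 47 genes followed through the alternatives kept the sign of their difference from mock in each of up to 18 settings. This was largely fixed in advance. The 15 higher and 10 lower genes among them were chosen for one sign in all 4 pairs. Leaving out an array or adding a pseudocount could therefore not turn their sign. Other variance priors and thresholds leave the difference of every gene as it is. The count of calls for estradiol in both lines against mock stayed at 0 in 13 of 18 settings and ranged from 0 to 251 with 1 array left out. The alternatives beyond 1 array left out included no replicate block, where it was 0 with 291 probe sets at an unadjusted p under 0.05. For HY213 against wild type, both under estradiol, the 1 call became 0 with a pseudocount of 16 or 64, with no replicate block, without the variance trend and with a robust prior, and ranged from 1 to 25 with 1 array left out. The 9 probe sets 2-fold apart in both replicates became 3 with a pseudocount of 16, 0 with 64, 58 with no replicate block (group means alone) and 33 at 1.5-fold, and 7 to 215 with 1 array left out. The 4 that were 2-fold in each line became 1, 0, 40 and 15 in the same settings, and 4 to 134 with 1 array left out. Without the dimmest 25% of probe sets, 9 of 14 list medians moved: to 0.28 for the xenobiotic, 0.63 for the cold and drought, 0.26 for the dehydrin, 0.16 for the auxin and 0.04 for the GH3, IAA and SAUR list, to -0.05 for expansins and -0.07 for WRKY factors, and with a turn of sign to -0.19 for xyloglucan endotransglucosylases and -0.03 for glutathione transferases. A pseudocount shrinks dim values, and leaving out a mock array leaves 1 replicate to decide. Signal over background limits dim genes, since 58.2% to 72.7% of probe sets on an array read above its Bacillus controls.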
